A study of Drosophila melanogaster with 54 samples.

Results

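In adult heads of Drosophila melanogaster held at 29 °C, knockdown of BEAF-32 by RNA interference was compared with its driver-only control: 3 libraries a side, 6 of the 54 samples in the series. BEAF-32 (boundary element-associated factor of 32 kDa) is a DNA-binding insulator protein. Insulators are DNA elements, with the proteins on them, that separate neighbouring chromatin domains and keep an enhancer from acting on the wrong promoter, and BEAF-32 is found mostly near the promoters of active genes. In the fly eye it has been placed, in published genetic work, with the Hippo signalling pathway in the choice that the R8 photoreceptor makes between the visual pigments Rh5 and Rh6.

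Control flies carried the actin5C-gal4 driver, which is active in nearly every cell, and no RNA interference transgene. They have the strain label YW and the genotype label wild type. Knockdown flies carried the same driver and a UAS-RNAi transgene directed against BEAF-32, also with the strain label YW. All flies were reared at 25 °C, and newly eclosed adults then spent 3 days at 29 °C, with light and dark alternating every 12 h. RNA was taken from whole heads. The driver also acts during development, so earlier and adult effects of the knockdown cannot be told apart. Sex, time of day and genetic background beyond the strain label were not stated. Nor was it stated that replicates are separate cultures, so p-values measure the spread between these libraries, which may be technical. The controls carry no UAS transgene, so loss of BEAF-32 and the presence of such a transgene cannot be told apart.

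The libraries were made from 3' ends of RNA and read as counts per gene. They held 5184789, 4995229 and 5300995 counts in the control and 5858151, 6393926 and 4157130 in the knockdown group, and 3 counts correspond to between 0.485 and 0.773 CPM, taken here as the limit for a gene listed with no reads. CPM are counts scaled to a common library size, here after TMM scaling of the library sizes, and are listed for replicates 1, 2 and 3 in that order. Differences are log2 fold changes of knockdown over control. Each adjusted p comes from the quasi-likelihood test of edgeR, adjusted over 9056 genes by the Benjamini-Hochberg method, and a gene was called where it was below 0.05. The fit also used the 6 libraries of the same genotypes at 18 °C, so that all groups shared an estimate of the spread. Log CPM of replicates correlated across genes at 0.984 to 0.988 in the groups at 29 °C. In RNA from whole heads, fewer cells of a type and less RNA per cell cannot be told apart. Gene lists were written with earlier results of these data known, so their counts describe the libraries and are not independent evidence.

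The knockdown was measured first. BEAF-32 RNA stood at 32.8, 35.5 and 35.2 CPM in control and 2.65, 2.75 and 0.516 CPM in knockdown libraries. BEAF-32 had a log2 fold change of -3.998 (SE 0.227, adjusted p = 1.25e-10). All knockdown libraries lay far below all control libraries. The lowest was knockdown replicate 3, which is also the smallest of the 6 libraries.

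Few other insulator genes changed. Of the 18 insulator and boundary genes tested, 3 were called lower and none higher, and BEAF-32 itself is 1 of the 3. DESeq2 called the same numbers, and 0 were higher at an unadjusted p below 0.05. Across all genes tested, 7.14% were called higher and 7.56% lower, 14.7% in either direction. The counts of every gene list below are to be read beside these shares. The second was Top2, topoisomerase II, which relaxes supercoiled DNA and has been tied to insulator function, at 38.8, 43.7 and 41.9 CPM in control and 24.8, 27.3 and 26.8 CPM in knockdown libraries. Top2 had a log2 fold change of -0.66 (SE 0.103, adjusted p = 0.000113). The third was su(Hw), the zinc finger protein of the gypsy insulator, at 15.9, 10.4 and 14.6 CPM in control and 8.14, 7.28 and 5.93 CPM in knockdown libraries. su(Hw) had a log2 fold change of -0.92 (SE 0.201, adjusted p = 0.00328). In both genes every knockdown library lay below every control library. Among the proteins known to act near or with BEAF-32, none was called. The log2 fold change was 0.08 (SE 0.110) for Chro, 0.08 (SE 0.126) for Cp190, -0.26 (SE 0.163) for Dref, whose binding motif overlaps that of BEAF-32, and 0.18 (SE 0.173) for the zinc finger protein CTCF. Ibf2, an insulator-binding factor, had the largest difference among the 15 that missed the threshold (log2 fold change -0.51, SE 0.194, adjusted p = 0.0872).

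**Figure D1:**
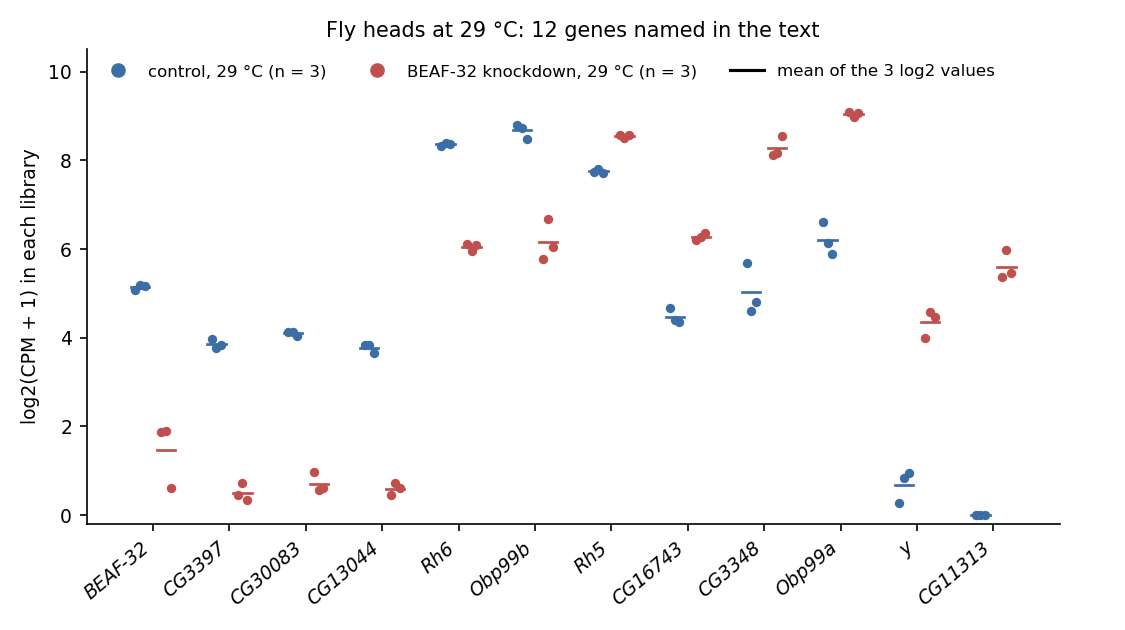
Levels of 12 genes in each of the 6 libraries at 29 °C, as log2(CPM + 1). Points are libraries (3 control, 3 knockdown) and lines are the means of the 3 log2 values. The control and the knockdown points do not overlap, which the rule that chose most of these genes required. The groups did not overlap in 31.8% of all genes tested. CG11313 had no read in any control library.

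Differences between knockdown and control heads reached well beyond the targeted gene. At 29 °C 1332 of 9056 genes were called, 647 higher and 685 lower in knockdown heads, and 269 of them differed by at least 2-fold (120 higher, 149 lower). Most called differences were modest, with a median absolute log2 fold change of 0.54. The signed log2 fold changes of all genes tested, where rises and falls cancel, had a median of 0.01. The groups did not overlap in 31.8% of the genes tested. The number called rested on the libraries used: it was 873 without control replicate 3, with 388 higher, and 709 without both control replicate 1 and knockdown replicate 1.

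**Figure D2:**
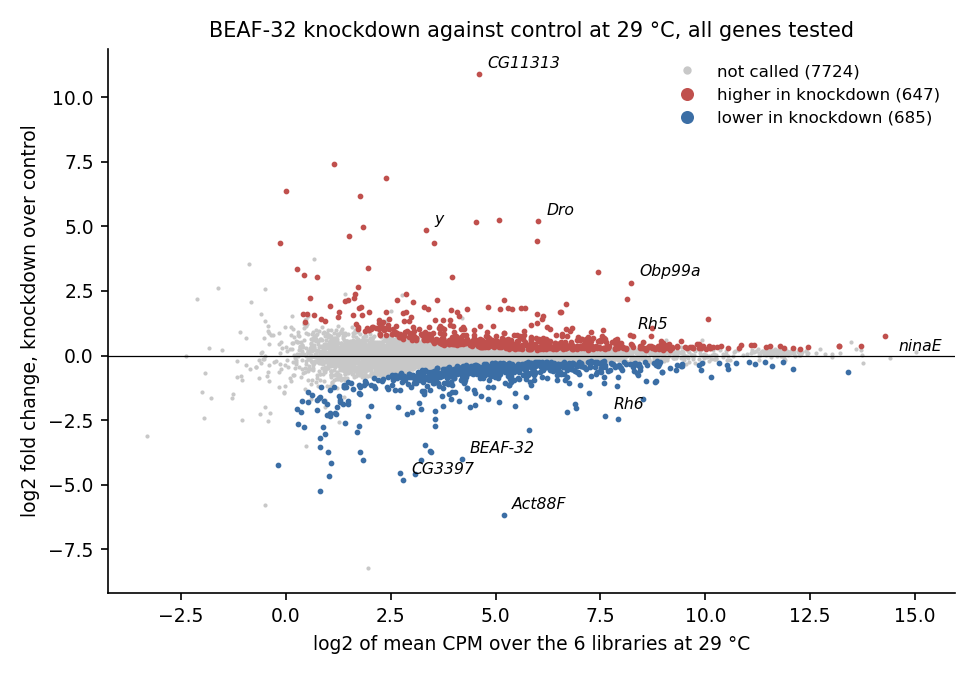
Log2 fold change of knockdown over control at 29 °C against the log2 of the mean CPM over the 6 libraries, for all 9056 genes tested. Red points are the 647 genes called higher, blue points the 685 called lower and grey points the rest, and the fitted value of CG11313 depends on a prior count because its controls held no read.

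Some genes rose from a level at or near 0. CG11313, on arm 3R, had no read in any of the 3 control libraries and 40.5, 61.7 and 43.3 CPM in the knockdown libraries, 763 reads in all, a level at least 79.2-fold higher than 3 counts per library would give (adjusted p = 8.12e-12). The long noncoding gene CR44463, on arm 2R, had 1 read over the control libraries and 163 over the knockdown libraries, at 8.89, 12.6 and 9.80 CPM, a ratio of 162 with a 95% interval for counting error of 28.7 to 6438 (adjusted p = 2.96e-08). That single control read lay in replicate 3, and the fitted log2 fold change was 8.67 without that library. At 18 °C CG11313 had 2 reads over the control and 798 over the knockdown libraries, and CR44463 had 1 and 110.

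y (yellow), the X-linked gene of dark cuticle pigment, stood at 0.204, 0.799 and 0.936 CPM in control and 14.9, 22.8 and 21.1 CPM in knockdown libraries. y had a log2 fold change of 4.85 (SE 0.325, adjusted p = 1.34e-09). All control libraries were below 1 CPM and all knockdown libraries above 14 CPM. y, v and w are common markers of laboratory stocks and transgenes, and the part of stock or construct in their values was not tested. v (vermilion), an enzyme of brown eye pigment, was at 106, 95.5 and 103 CPM in control and 140.0, 169.9 and 169.9 CPM in knockdown libraries. v had a log2 fold change of 0.66 (SE 0.0910, adjusted p = 2.89e-05). w (white), the transporter of eye pigment precursors, was at 4.89, 3.99 and 4.68 CPM in control and 8.32, 10.03 and 5.93 CPM in knockdown libraries (log2 fold change 0.87, adjusted p = 0.0269; adjusted p 0.0508 to 0.155 without control replicate 1, 2 or 3 or knockdown replicate 1 or 2).

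CG3348, in no list, was at 50.8, 23.2 and 26.8 CPM in control and 277, 286 and 371 CPM in knockdown libraries (log2 fold change 3.22, adjusted p = 1.70e-10). CG16743 was at 24.3, 19.97 and 19.5 CPM in control and 72.3, 76.1 and 81.2 CPM in knockdown libraries. CG16743 had a log2 fold change of 1.85 (SE 0.0977, adjusted p = 3.86e-11). CG17127 (log2 fold change 2.37, adjusted p = 2.25e-07) and CG32581, now named sordd2 (log2 fold change 1.82, adjusted p = 4.65e-10), rose with knockdown libraries that varied little: 12.5, 12.5 and 11.9 CPM and 52.4, 53.1 and 54.6 CPM. None of these 4 genes lost its call when any 1 library at 29 °C was left out. CR45045, now named CG45045 and annotated as protein-coding, had a less even rise, from 1.02, 1.40 and 0.936 CPM to 14.2, 41.4 and 10.6 CPM (log2 fold change 4.35, adjusted p = 0.00523), which knockdown replicate 2 led (adjusted p 0.0538 without knockdown replicate 2, log2 fold change 3.47).

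Among the genes that fell most, several came close to the counting floor. CG3397, on 3R, was at 14.7, 12.6 and 13.3 CPM in control and 0.378, 0.647 and 0.258 CPM in knockdown libraries. CG3397 had a log2 fold change of -4.81 (SE 0.354, adjusted p = 3.94e-09). CG30083, on 2R, was at 16.5, 16.6 and 15.3 CPM in control and 0.946, 0.485 and 0.516 CPM in knockdown libraries. CG30083 had a log2 fold change of -4.58 (SE 0.267, adjusted p = 1.70e-10). CG13044, on 3L, was at 13.3, 13.4 and 11.6 CPM in control and 0.378, 0.647 and 0.516 CPM in knockdown libraries. CG13044 had a log2 fold change of -4.54 (SE 0.319, adjusted p = 2.22e-09). In these 3 genes the control libraries lay close together and every knockdown library was below 1 CPM, near the level of 3 counts. CG34456 (log2 fold change -4.06, adjusted p = 2.06e-08), CG9150 (log2 fold change -3.46, adjusted p = 1.60e-09), CG8757 (log2 fold change -2.46, adjusted p = 1.27e-06) and Osi2, of the Osiris family of insect membrane proteins (log2 fold change -2.72, adjusted p = 9.74e-09), fell from between 14.3 and 23.6 CPM in control libraries to between 0.773 and 5.02 CPM in knockdown libraries. phr, a DNA photolyase that repairs ultraviolet damage, and CG18853 had nearly equal counts in every library and cannot be told apart, with phr at 18.4, 22.97 and 18.5 CPM in control and 1.70, 0.809 and 2.32 CPM in knockdown libraries (log2 fold change -3.70, adjusted p = 2.43e-09). Act88F, the actin of the flight muscle, ranked first by size of fall, but its control value came from replicate 2: 1.84, 211 and 3.56 CPM against 0, 1.62 and 1.29 CPM (log2 fold change -6.16, adjusted p = 0.00371). Without control replicate 2 the log2 fold change was -1.46 (adjusted p 0.153), and without knockdown replicate 1 or 2 it was -5.57 or -6.97.

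In the eye, the visual pigments of R8 changed in opposite directions. Rh6, the green-sensitive visual pigment of the yellow subtype of R8, was at 319, 336 and 329 CPM in control and 68.1, 61.3 and 67.02 CPM in knockdown libraries. The level was 5.02-fold lower (log2 fold change -2.33, SE 0.0997, adjusted p = 2.45e-12). Rh5, the blue-sensitive pigment of the pale subtype of R8, was at 213, 223 and 208 CPM in control and 377, 365 and 377 CPM in knockdown libraries. The level was 1.74-fold higher (log2 fold change 0.80, SE 0.0779, adjusted p = 2.67e-07). Within each gene the libraries of a group differed little, and the groups lay far apart in opposite directions.

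No other rhodopsin gene was called. ninaE, the pigment of the outer photoreceptors R1 to R6, was at 21917, 22609 and 22387 CPM in control and 21882, 20272 and 21237 CPM in knockdown libraries (log2 fold change -0.08, SE 0.0803, adjusted p = 0.587). Rh3 and Rh4, the ultraviolet-sensitive pigments of R7, had log2 fold changes of -0.14 (SE 0.0757, adjusted p = 0.262) and 0.01 (SE 0.0798, adjusted p = 0.979). Rh2, the pigment of the ocelli, had -0.11 (SE 0.0917) and Rh7, a rhodopsin of brain clock neurons, 0.37 (SE 0.186). Genes of the Hippo pathway, in which the kinases hpo and wts hold back the coactivator yki, were looked up after the rhodopsin values were seen, and edgeR called none of the 9, with 0 at an unadjusted p below 0.05 in either direction. By DESeq2 their adjusted p was 0.431 or more. wts, whose activity favours Rh6 in R8, was at 17.3, 18.97 and 23.8 CPM in control and 22.5, 20.9 and 19.3 CPM in knockdown libraries (log2 fold change 0.06, SE 0.128). melt, which opposes wts in R8 and favours Rh5, was low, at 4.49, 2.20 and 3.18 CPM in control and 3.03, 1.62 and 1.80 CPM in knockdown libraries (log2 fold change -0.60, SE 0.395, adjusted p = 0.351). hpo, sav, mats, yki, kibra, Mer and ex had log2 fold changes between -0.38 and 0.06, with adjusted p from 0.222 to 0.932. R8 cells are few among the cells of a head, so wts and melt in R8 itself were not measured.

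Phototransduction genes moved both ways. Of 42 tested genes listed with phototransduction and photoreceptors, not all of which act only in photoreceptors, 8 were called higher and 7 lower (median log2 fold change -0.02, against 0.01 over all genes). Their summed level was 60651, 62789 and 63285 CPM in the control and 64524, 63132 and 64922 CPM in the knockdown libraries. The light-activated channel genes went opposite ways. trpl was at 1461, 1486 and 1409.7 CPM in control and 825, 794 and 821 CPM in knockdown libraries (log2 fold change -0.84, adjusted p = 4.29e-08). trp, the main channel, was at 1659, 1585 and 1566 CPM in control and 1895, 1953 and 2031 CPM in knockdown libraries (log2 fold change 0.29, adjusted p = 0.0185; adjusted p 0.0619 to 0.0811 without control replicate 2 or 3 or knockdown replicate 3). Genes of the beta and gamma subunits of the eye's G protein rose, while Galphaq, the alpha subunit gene on the same list, was not called. Gbeta76C was at 209, 244 and 234 CPM in control and 385, 403 and 386 CPM in knockdown libraries (log2 fold change 0.77, adjusted p = 5.52e-07). Ggamma30A was at 1970.2, 1968 and 1934 CPM in control and 2565, 2581 and 2616 CPM in knockdown libraries (log2 fold change 0.40, adjusted p = 0.00109). The scaffold gene inaD (log2 fold change 0.52, adjusted p = 0.00107) and rtp, named retinophilin (log2 fold change 0.56, adjusted p = 3.76e-05), rose, while ninaA, a chaperone of rhodopsin (log2 fold change -0.46, adjusted p = 0.000543), and inaC, the eye's protein kinase C (log2 fold change -0.31, adjusted p = 0.00504), fell. rdgA, glob1, ninaB, ninaD and ninaG completed the 15 calls, and each of these 5 lost its call without at least 1 library. rdgA rose by a log2 fold change of 0.24 (adjusted p 0.0586 to 0.164 without control replicate 1, 2 or 3 or knockdown replicate 1, 2 or 3), and glob1 by 0.28 (adjusted p 0.0669 to 0.126 without control replicate 1, 2 or 3 or knockdown replicate 1 or 3). The carotenoid oxygenase gene ninaB had a log2 fold change of -0.33 (adjusted p 0.0824 to 0.266 without control replicate 2 or knockdown replicate 1, 2 or 3). ninaD, a scavenger receptor for carotenoid uptake, had -0.85 (adjusted p 0.118 to 0.162 without control replicate 3 or knockdown replicate 1 or 2), and ninaG had -0.43 (adjusted p 0.0516 to 0.184 without control replicate 2 or 3 or knockdown replicate 1, 2 or 3). The count higher was 5 without control replicate 2 or 3 or knockdown replicate 3, and the count lower 4 without knockdown replicate 1 or 2.

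Of 13 visible marker and eye pigment genes tested, 3 were called higher, namely y, v and w above, and 4 lower, and a retinol dehydrogenase gene outside that list fell as well. rdhB, a retinol dehydrogenase of the eye's pigment cells, was at 205, 228 and 228 CPM in control and 70.8, 88.03 and 82.7 CPM in knockdown libraries. rdhB had a log2 fold change of -1.45 (SE 0.0971, adjusted p = 1.34e-09). se, an enzyme of the red drosopterin pigments, was at 77.9, 85.3 and 75.6 CPM in control and 32.4, 37.7 and 37.9 CPM in knockdown libraries (log2 fold change -1.15, SE 0.103, adjusted p = 7.39e-08), and bw, a transporter of their precursors, at 56.3, 56.9 and 58.8 CPM in control and 29.1, 26.9 and 34.3 CPM in knockdown libraries. bw had a log2 fold change of -0.94 (SE 0.109, adjusted p = 2.60e-06). Hn, phenylalanine hydroxylase, fell (log2 fold change -0.55, adjusted p = 0.000125). st, the partner of w in brown pigment transport, was at 22.03, 19.6 and 25.6 CPM in control and 15.1, 18.3 and 17.01 CPM in knockdown libraries (log2 fold change -0.41, adjusted p = 0.0359; adjusted p 0.0662 to 0.198 without control replicate 1 or 3 or knockdown replicate 1 or 3).

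Many genes of the respiratory chain rose at 29 °C. Of 70 nuclear-encoded genes of the mitochondrial respiratory chain, which passes electrons to oxygen and makes ATP, 40 were called higher and none lower, 57.1% against 7.14% over all genes, and 68 had a positive log2 fold change (median 0.29). By DESeq2 39 were called higher and 0 lower, and 1 was lower at an unadjusted p below 0.05. The steps were small: the largest was CG34172, now named COX7AL2, at 62.2, 82.7 and 62.5 CPM in control and 129, 119 and 125 CPM in knockdown libraries (log2 fold change 0.84, SE 0.122, adjusted p = 4.48e-05), followed by ND-49 of complex I at 182, 181 and 176 CPM in control and 261, 262 and 248 CPM in knockdown libraries. ND-49 had a log2 fold change of 0.52 (SE 0.0749, adjusted p = 4.93e-05). RFeSP, the iron-sulfur protein of complex III, was at 478, 494 and 441 CPM in control and 681, 628 and 628 CPM in knockdown libraries (log2 fold change 0.46, adjusted p = 0.00138). COX7C of complex IV was at 779.9, 782 and 759.8 CPM in control and 1085, 1023 and 1069 CPM in knockdown libraries (log2 fold change 0.45, adjusted p = 0.000912). In these 4 genes every knockdown library lay above every control library. Summed over the list, the level was 33536, 33491 and 31541 CPM in the control and 40495, 38997 and 39968 CPM in the knockdown libraries, which did not overlap.

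Genes were called higher in every complex. Called higher were 13 of 32 tested genes of complex I, 2 of 4 of complex II, 8 of 9 of complex III, 9 of 11 of complex IV and 8 of 13 of ATP synthase, with medians of 0.25, 0.28, 0.34, 0.34 and 0.30 on the log2 scale. The count of 40 depended on single libraries, at 19 without control replicate 3, 23 without knockdown replicate 1 and 25 without knockdown replicate 3. At 18 °C, where 6.63% of all genes were called higher and 7.5% lower, none of the 70 was called higher and 7 lower (median -0.04). For the difference between temperatures, 1.39% of all genes were called higher and 0.917% lower. Of the respiratory genes 5 were called for it, all toward a higher log2 fold change at 29 °C.

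**Figure D3:**
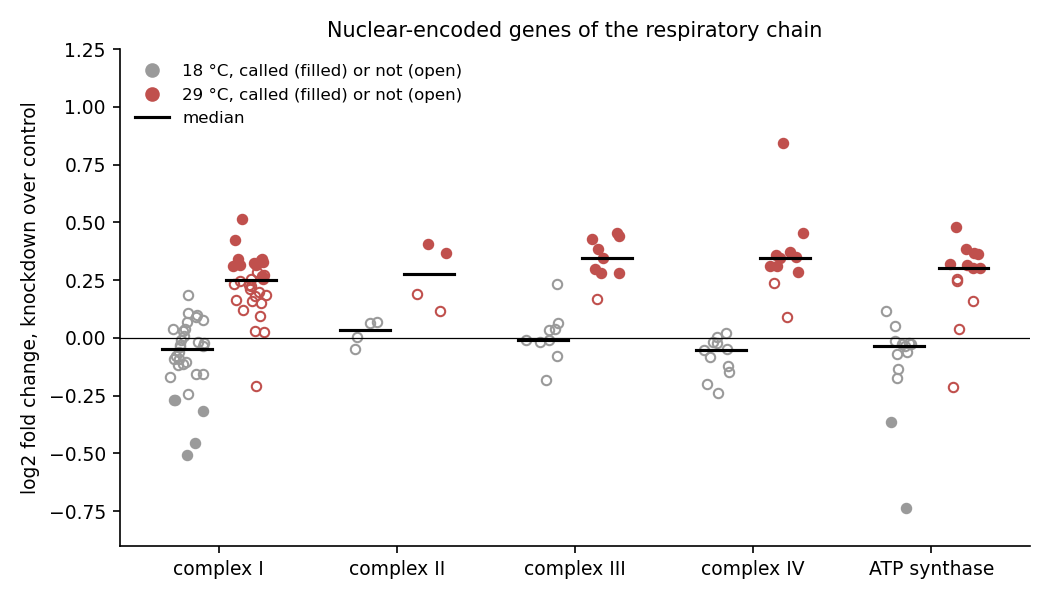
Log2 fold change of knockdown over control for the tested nuclear-encoded genes of each respiratory complex (cytochrome c is not drawn), at 18 °C (grey) and 29 °C (red); filled points were called, open points were not, black bars are medians. At 29 °C the medians lie between 0.25 and 0.34, and at 18 °C between -0.05 and 0.03.

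Some genes of sugar metabolism rose. Of 17 genes of glycolysis and gluconeogenesis tested, 5 were called higher and 1 lower at 29 °C, against 0 and 8 at 18 °C, and 8 passed the test of the difference between temperatures. ImpL3, lactate dehydrogenase, was at 8.77, 10.8 and 10.3 CPM in control and 19.7, 26.2 and 19.3 CPM in knockdown libraries. ImpL3 had a log2 fold change of 1.14 (SE 0.152, adjusted p = 1.68e-05). fbp, fructose-1,6-bisphosphatase of gluconeogenesis, was at 171, 143 and 145 CPM in control and 255, 219.8 and 233 CPM in knockdown libraries (log2 fold change 0.63, SE 0.0961, adjusted p = 8.76e-05). Gapdh1 was at 1209.9, 1164 and 1099 CPM in control and 1497, 1431 and 1508 CPM in knockdown libraries (log2 fold change 0.35, adjusted p = 0.00392). GlyP, glycogen phosphorylase, which releases glucose from glycogen, was the 1 lower, at 539, 499 and 494 CPM in control and 414, 389.7 and 398 CPM in knockdown libraries (log2 fold change -0.35, adjusted p = 0.00901). Hex-C and Gpdh made up the 5 and lost the call without single libraries (Hex-C adjusted p 0.105 to 0.18 without control replicate 2 or 3 or knockdown replicate 1 or 2; Gpdh adjusted p 0.0671 to 0.155 without control replicate 1, 2 or 3 or knockdown replicate 1, 2 or 3). The count higher was 3 without control replicate 2 or 3 or knockdown replicate 1 or 2.

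Of 17 genes listed with the citric acid cycle, 4 were called higher (23.5%) and 2 lower (11.8%). Of the 2 lower, malic enzyme is not itself a step of the cycle. kdn, citrate synthase, was at 138, 153 and 135 CPM in control and 234, 197 and 215 CPM in knockdown libraries (log2 fold change 0.60, SE 0.0908, adjusted p = 7.68e-05), and SdhD (log2 fold change 0.41, adjusted p = 0.00320), with SdhB and Acon, rose as well. SdhB and SdhD code for subunits of complex II, so their rises are not separate from those of the respiratory chain above. Men, malic enzyme, was at 159, 167 and 151 CPM in control and 95.4, 88.5 and 105 CPM in knockdown libraries (log2 fold change -0.73, SE 0.0923, adjusted p = 9.94e-06), and skap, a subunit of succinyl-CoA synthetase, fell (log2 fold change -0.37, adjusted p = 0.00155). In the pentose phosphate pathway, the source of NADPH, Pgd was at 139, 112 and 123 CPM in control and 254, 240.3 and 258 CPM in knockdown libraries (log2 fold change 1.01, SE 0.0891, adjusted p = 5.83e-08), with no overlap between groups. Zw, the first enzyme of the same pathway, was at 72.4, 66.5 and 76.4 CPM in control and 52.2, 85.6 and 69.3 CPM in knockdown libraries (log2 fold change -0.05, SE 0.139, adjusted p = 0.866). Mitochondrial ribosomal protein genes were called higher in 13 of 75 and lower in 1, with 65 positive log2 fold changes and a median of 0.16. DESeq2 called 6 higher and 1 lower. mRpL28 rose (log2 fold change 0.57, adjusted p = 7.14e-05) and mRpS31 was the 1 that fell (log2 fold change -0.75, adjusted p = 4.91e-05). The count higher was 7 without control replicate 2 or knockdown replicate 2 or 3, 4 without control replicate 3 and 6 without knockdown replicate 1. Cytosolic ribosomal protein genes were called higher in 8 of 85 (9.41%) and lower in 1, with a median of 0.15, and with upper-quartile factors 5 were higher. The 1 lower was RpS18, named after its values were seen (log2 fold change -0.26, adjusted p = 0.0438), and the count lower was 0 without any 1 of the 6 libraries. RpL8 was at 2871, 2525 and 2443 CPM in control and 3599, 3119.7 and 3347 CPM in knockdown libraries (log2 fold change 0.36, adjusted p = 0.00684; adjusted p 0.0507 without control replicate 3), and the count higher was 3 without control replicate 2 or knockdown replicate 3, 0 without control replicate 3 and 2 without knockdown replicate 1.

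Some genes of innate immunity rose. Antimicrobial peptides are made mainly in the fat body after the Toll and Imd pathways detect microbes. Of 34 peptide and recognition genes tested, 10 were called higher (29.4%), none lower and 24 in neither direction, with 8 negative log2 fold changes and a median log2 fold change of 0.45. For lower levels, 2 had an unadjusted p below 0.05 and DESeq2 called 0. At 18 °C 18 were called higher and none lower. Among the largest differences were those of 2 diptericins, drosocin and the attacin AttA. Dpt (DptA) was at 0.816, 1.997 and 2.43 CPM in control and 35.9, 116 and 46.9 CPM in knockdown libraries. Dpt had a log2 fold change of 5.23 (SE 1.07, adjusted p = 0.00175). Dro was at 2.86, 2.20 and 5.05 CPM in control and 78.9, 204 and 93.8 CPM in knockdown libraries. Dro had a log2 fold change of 5.21 (SE 0.751, adjusted p = 4.48e-05). DptB was at 6.12, 4.99 and 5.80 CPM in control and 108, 182 and 76.3 CPM in knockdown libraries. DptB had a log2 fold change of 4.45 (SE 0.559, adjusted p = 8.79e-06). Every control library stayed below 7 CPM for Dpt, Dro and DptB and every knockdown library was above 35 CPM, highest in replicate 2. Without knockdown replicate 2 the log2 fold change of Dpt was 4.52.

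AttA, an attacin, was at 3.06, 0.200 and 0.562 CPM in control and 35.4, 59.6 and 40.7 CPM in knockdown libraries (log2 fold change 5.17, SE 0.666, adjusted p = 1.19e-05), with control replicate 1 above the other controls and a log2 fold change of 6.80 without it. AttA has a nearly identical neighbour, AttB, so reads may be split between them. Def, the defensin, had even values, 18.4, 17.2 and 20.4 CPM in control and 61.1, 66.8 and 66.2 CPM in knockdown libraries (log2 fold change 1.79, SE 0.224, adjusted p = 8.01e-06). Mtk, metchnikowin, was at 185, 70.1 and 47.9 CPM in control and 384, 678 and 314 CPM in knockdown libraries (log2 fold change 2.19, adjusted p = 0.00282), and the log2 fold change was 2.96 without control replicate 1. PGRP-LF and PGRP-SB1, of the peptidoglycan recognition protein family, rose by log2 fold changes of 1.16, adjusted p = 0.000423, and 1.08, adjusted p = 0.00324. AttC and CecC completed the 10 and lost the call without single libraries (AttC adjusted p 0.0754 to 0.114 without control replicate 2 or 3 or knockdown replicate 2; CecC adjusted p 0.0631 to 0.0931 without control replicate 1 or 3 or knockdown replicate 2 or 3).

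Other stress and immune cell genes moved both ways. Of 8 Turandot and stress genes tested, 2 were called higher and 2 lower, 25% each, against 7.14% and 7.56% over all genes. TotM was at 19.6, 13.98 and 12.5 CPM in control and 36.5, 24.9 and 42.02 CPM in knockdown libraries (log2 fold change 1.14, adjusted p = 0.00417), and smp-30 rose as well (log2 fold change 0.48, adjusted p = 0.00191). TotX was at 43.6, 42.5 and 44.9 CPM in control and 9.46, 18.1 and 12.1 CPM in knockdown libraries (log2 fold change -1.69, adjusted p = 5.49e-07). TotA was at 253, 257 and 260.4 CPM in control and 91.9, 104 and 179 CPM in knockdown libraries (log2 fold change -1.05, adjusted p = 8.81e-05). Of 10 hemocyte genes, whose products mark blood cells, 2 were called higher and 2 lower, 20% each. Their summed level was 575, 661 and 620.3 CPM in control and 621, 615 and 626 CPM in knockdown libraries, which overlap. vkg, a collagen, rose (log2 fold change 0.58, adjusted p = 6.33e-05). Pxn had a log2 fold change of 0.37 (adjusted p 0.0525 to 0.0674 without control replicate 1 or 3 or knockdown replicate 1). srp had -0.38 (adjusted p 0.0519 to 0.0736 without control replicate 2 or 3 or knockdown replicate 1 or 2). PPO1 had -0.53 (adjusted p 0.0871 to 0.13 without control replicate 2 or 3 or knockdown replicate 1, 2 or 3).

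Fat body and storage genes were called higher in 6 of 18 (33.3%) and lower in 2 (11.1%), against 7.14% and 7.56% over all genes. Gnmt, glycine N-methyltransferase, was at 26.5, 47.7 and 32.6 CPM in control and 91.6, 112 and 108 CPM in knockdown libraries. Gnmt had a log2 fold change of 1.55 (SE 0.298, adjusted p = 0.00106). Lsp2, a larval serum protein that stores amino acids, was at 18.4, 76.3 and 36.7 CPM in control and 162, 107 and 154 CPM in knockdown libraries (log2 fold change 1.68, SE 0.352, adjusted p = 0.00221), with uneven controls and a log2 fold change of 2.35 without control replicate 2. Apoltp, a lipid transfer particle protein, was at 125, 109.6 and 110.1 CPM in control and 168, 165 and 166 CPM in knockdown libraries (log2 fold change 0.54, adjusted p = 0.000379), and Desat1, a fatty acid desaturase, rose too (log2 fold change 0.40, adjusted p = 0.00107). fbp, given above, was the other member that kept its rise without any 1 library. AkhR, the receptor of adipokinetic hormone, which calls up fat and glycogen stores, was at 18.4, 15.98 and 22.8 CPM in control and 8.51, 7.93 and 7.48 CPM in knockdown libraries. AkhR had a log2 fold change of -1.25 (SE 0.171, adjusted p = 2.41e-05). Cyp4g1, of the oenocytes, was at 0, 9.79 and 0 CPM in control and 6.81, 23.6 and 53.1 CPM in knockdown libraries, with reads in 1 control library. It had a log2 fold change of 3.04, adjusted p = 0.0188 (adjusted p 0.0777 to 0.141 without control replicate 1 or 3 or knockdown replicate 3). The log2 fold change was 2.43 without control replicate 3, 2.26 without knockdown replicate 3, and a fitted 10.03 without control replicate 2, which leaves no control read. Rfabg, the apolipophorin precursor, was called lower (log2 fold change -0.25, adjusted p = 0.0492; adjusted p 0.0816 to 0.194 without control replicate 1, 2 or 3 or knockdown replicate 1 or 3). The summed level of the list was 6889, 7068 and 6622 CPM in control and 6954, 7232 and 7289.9 CPM in knockdown libraries, which overlap, and the part of fat body content in the immune and storage results was not tested.

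Odorant-binding proteins, small secreted carriers of hydrophobic ligands, changed in both directions and by large factors. Of 30 tested, 4 were called higher and 9 lower (30.0% against 7.56% over all genes), with a median log2 fold change of -0.31. At 18 °C 10 were called higher and 5 lower. Obp99a was at 96.1, 69.5 and 57.8 CPM in control and 546, 502 and 535 CPM in knockdown libraries. Obp99a had a log2 fold change of 2.83 (SE 0.196, adjusted p = 2.22e-09). Obp99b, of the same family, was at 445, 427 and 356 CPM in control and 53.9, 101 and 65.5 CPM in knockdown libraries. Obp99b had a log2 fold change of -2.47 (SE 0.176, adjusted p = 2.43e-09). For both genes the groups did not overlap, which the rule that chose the largest changes required.

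Obp56d was at 615, 532 and 584 CPM in control and 1546, 1458 and 1643 CPM in knockdown libraries (log2 fold change 1.42, adjusted p = 3.61e-09). Obp49a was at 114, 96.9 and 109 CPM in control and 205, 204 and 198 CPM in knockdown libraries (log2 fold change 0.93, adjusted p = 1.65e-06), and Obp56h (log2 fold change 1.20, adjusted p = 3.48e-05) completed the 4 that rose. Obp99d fell from 6.32, 3.79 and 7.11 CPM to 0.378, 0.647 and 1.29 CPM (log2 fold change -2.96, adjusted p = 0.000116), and Obp57a fell as well (log2 fold change -0.94, adjusted p = 6.03e-05). Obp69a fell from 7.55, 2.996 and 3.18 CPM to 0.757, 0.485 and 1.03 CPM (log2 fold change -2.61, adjusted p = 0.0115; adjusted p 0.0591 to 0.0825 without control replicate 1 or knockdown replicate 2). Obp56a fell (log2 fold change -1.03, adjusted p = 0.00893; adjusted p 0.0687 without knockdown replicate 2), and the count lower was 5 without knockdown replicate 2. The antennal gene Obp83a was at 8.16, 0.200 and 0.749 CPM in control and 0.946, 0.324 and 1.03 CPM in knockdown libraries, a difference that missed the threshold (adjusted p = 0.415) and that control replicate 1 decides, since its log2 fold change was -2.005 with and 0.55 without that library. Only 8 of 179 chemoreceptor genes had enough reads to be tested, and Or63a, an olfactory receptor, was the 1 called, at 4.08, 3.79 and 3.37 CPM in control and 0.757, 0.809 and 0.773 CPM in knockdown libraries. Or63a had a log2 fold change of -2.22 (SE 0.489, adjusted p = 0.00341).

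Detoxification enzymes leaned toward lower levels. Among cytochrome P450 genes, 8 of 65 were called higher and 18 lower (27.7%), with a median log2 fold change of -0.12. Cyp6a23 was at 52.01, 46.9 and 59.7 CPM in control and 17.8, 13.6 and 13.7 CPM in knockdown libraries. Cyp6a23 had a log2 fold change of -1.81 (SE 0.119, adjusted p = 1.09e-09). Cyp4s3 was at 19.2, 22.97 and 23.8 CPM in control and 5.87, 9.71 and 7.73 CPM in knockdown libraries (log2 fold change -1.48, adjusted p = 1.64e-06). Cyp6a20, known for its part in aggression, was at 79.95, 70.5 and 79.6 CPM in control and 34.8, 44.7 and 31.2 CPM in knockdown libraries (log2 fold change -1.04, adjusted p = 4.21e-06). In these 3 genes every knockdown library lay below every control library. Cyp6a17, the gene of temperature preference, went the other way, at 34.1, 30.96 and 29.6 CPM in control and 55.2, 58.7 and 51.8 CPM in knockdown libraries. Cyp6a17 had a log2 fold change of 0.82 (SE 0.0903, adjusted p = 1.57e-06). Cyp4e3, Cyp6d2 and Cyp4d1 rose as well, by log2 fold changes of 2.14, adjusted p = 4.37e-06, 1.89, adjusted p = 0.000805, and 1.10, adjusted p = 1.33e-05. Without control replicate 3, 5 P450 genes were called higher.

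Glutathione S-transferase genes were called higher in 1 of 29 and lower in 7 (24.1%), with a median of -0.25. GstO3 was at 95.5, 88.1 and 98.3 CPM in control and 68.1, 64.2 and 60.8 CPM in knockdown libraries (log2 fold change -0.54, adjusted p = 8.35e-05). GstZ2 was at 63.6, 73.1 and 79.4 CPM in control and 45.6, 47.7 and 46.7 CPM in knockdown libraries (log2 fold change -0.63, adjusted p = 0.000696). For both genes the knockdown libraries lay below the control libraries. GstE14 fell (log2 fold change -0.48, adjusted p = 0.00563), GstE13 was the 1 that rose (log2 fold change 0.56, adjusted p = 0.00251), and 4 were called lower without knockdown replicate 1. Of 17 UDP-glycosyltransferase genes, which couple sugars to foreign compounds, 3 were called lower and 1 higher. Ugt86Dd was at 65.1, 68.9 and 76.9 CPM in control and 15.9, 20.7 and 17.8 CPM in knockdown libraries (log2 fold change -1.95, SE 0.102, adjusted p = 3.86e-11), and Ugt86Da fell (log2 fold change -0.44, adjusted p = 0.00324). CG5999, now named Ugt37A3, rose from 0.408, 0.200 and 1.31 CPM to 4.92, 7.28 and 9.28 CPM (log2 fold change 3.37, adjusted p = 1.20e-05, and 4.42 without control replicate 3). Ugt35a was the third that fell (log2 fold change -0.69, adjusted p = 0.0156; adjusted p 0.057 to 0.087 without control replicate 1 or knockdown replicate 1).

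Some neuronal genes rose slightly. Of 35 tested, 9 were called higher (25.7%), none lower and 26 in neither direction, with a median log2 fold change of 0.20 and 27 positive, and their summed level was 2489, 2594 and 2628 CPM in control and 2746, 2837 and 2857 CPM in knockdown libraries, without overlap. Gad1, the enzyme of GABA synthesis, was at 109, 117 and 119 CPM in control and 139, 158 and 153 CPM in knockdown libraries (log2 fold change 0.38, SE 0.0848, adjusted p = 0.00376) and kept its call without any 1 library. VAChT, the vesicular acetylcholine transporter, Vmat, the vesicular monoamine transporter, and Trh, tryptophan hydroxylase of serotonin synthesis, rose but lost the call without single libraries. VAChT had a log2 fold change of 0.38, adjusted p = 0.0105 (adjusted p 0.0737 without control replicate 3). Vmat had 0.32, adjusted p = 0.0193 (adjusted p 0.062 to 0.0995 without control replicate 2 or knockdown replicate 2 or 3). Trh had 0.69, adjusted p = 0.0105 (adjusted p 0.054 to 0.065 without control replicate 1 or knockdown replicate 3). The other 5 were cac, ChAT, Ddc, nAChRbeta1 and Sh, with log2 fold changes from 0.26 to 0.36 and adjusted p from 0.0234 to 0.0435, and each lost its call without at least 1 library. The adjusted p of cac was then 0.0529 to 0.123 without control replicate 2 or 3 or knockdown replicate 1 or 2, and that of ChAT 0.0532 to 0.147 without control replicate 1 or 2 or knockdown replicate 1, 2 or 3. For Ddc it was 0.0541 to 0.174 without control replicate 1, 2 or 3 or knockdown replicate 1 or 2, for nAChRbeta1 0.0778 to 0.161 without control replicate 1 or 2 or knockdown replicate 1 or 2, and for Sh 0.0933 to 0.159 without control replicate 1, 2 or 3 or knockdown replicate 1 or 3. The count was 4 without control replicate 1 or knockdown replicate 2, 3 without control replicate 2 and 5 without knockdown replicate 1 or 3, and 4 by DESeq2, while 0 were lower at an unadjusted p below 0.05 or by DESeq2.

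Neuropeptide genes were called higher in 4 of 34 (11.8%) and lower in 1 (2.94%), and by DESeq2 in 2 and 1. The 1 lower was CCHa2, a peptide released from fat body and gut that promotes insulin secretion, at 129.5, 132 and 139.6 CPM in control and 64.3, 70.6 and 71.9 CPM in knockdown libraries. CCHa2 had a log2 fold change of -0.96 (SE 0.0953, adjusted p = 3.54e-07). Proc, proctolin, was at 19.4, 25.6 and 26.4 CPM in control and 33.1, 40.3 and 35.3 CPM in knockdown libraries. Proc had a log2 fold change of 0.61 (SE 0.112, adjusted p = 0.000674). Dh31, a diuretic hormone, had a log2 fold change of 0.34, adjusted p = 0.0211 (adjusted p 0.084 to 0.095 without control replicate 1 or knockdown replicate 3). FMRFa had 0.69, adjusted p = 0.0241 (adjusted p 0.0577 to 0.107 without control replicate 1 or 2 or knockdown replicate 3). Nplp4 had 0.68, adjusted p = 0.0282 (adjusted p 0.0538 to 0.131 without control replicate 1, 2 or 3 or knockdown replicate 2 or 3). In the circadian clock, 1 of 20 genes was called higher (5%) and 2 lower (10%), near the shares over all genes, 7.14% and 7.56%. The clock-controlled gene to (takeout) was at 20.2, 16.98 and 20.4 CPM in control and 31.03, 29.8 and 29.4 CPM in knockdown libraries (log2 fold change 0.65, adjusted p = 0.00106). tim, a core repressor of the clock, was at 76.9, 75.3 and 77.1 CPM in control and 59.97, 58.9 and 61.6 CPM in knockdown libraries (log2 fold change -0.35, adjusted p = 0.00536). cyc, a clock activator, had a log2 fold change of -0.41, adjusted p = 0.0498 (adjusted p 0.0561 to 0.171 without control replicate 2 or 3 or knockdown replicate 1, 2 or 3). Time of day was not stated for these flies, so collection time and genotype cannot be told apart for clock genes.

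Glial genes were called higher in 1 of 18 (5.56%) and lower in 4 (22.2%), against 7.14% and 7.56% over all genes. nrv2, a subunit of the sodium pump, was at 179, 208 and 193 CPM in control and 266, 289 and 299.5 CPM in knockdown libraries (log2 fold change 0.56, SE 0.0839, adjusted p = 7.36e-05), and CG6126 fell (log2 fold change -0.43, adjusted p = 0.00471). Mdr65, a transporter of the blood-brain barrier, axo and drpr, the engulfment receptor, were called lower but not in every subset. Mdr65 had a log2 fold change of -0.42, adjusted p = 0.0158 (adjusted p 0.0602 to 0.102 without control replicate 2 or 3 or knockdown replicate 2 or 3). axo had -0.38, adjusted p = 0.0163 (adjusted p 0.0608 to 0.086 without control replicate 1 or knockdown replicate 1). drpr had -0.32, adjusted p = 0.0365 (adjusted p 0.108 to 0.119 without control replicate 1 or 2 or knockdown replicate 2 or 3). Among 26 muscle genes 1 was called higher, Mlp84B, and 6 lower, namely Act88F, Act79B, Act87E, Zasp52, TpnC41C and Strn-Mlck, but none in either direction without control replicate 2. The count lower was 0 without control replicate 2, 3 without knockdown replicate 1 or 3 and 2 without knockdown replicate 2, and 3 by DESeq2. Act79B, too, was high in that library, at 37.3, 429.6 and 44.7 CPM in control and 42.4, 28.8 and 41.2 CPM in knockdown libraries. It had a log2 fold change of -2.20, adjusted p = 0.0412, and -0.15 without that library (adjusted p 0.0986 to 0.914 without control replicate 2 or knockdown replicate 1, 2 or 3). The summed muscle level was highest there, at 4644, 6133 and 4588 CPM in control and 5138, 4258 and 4685 CPM in knockdown libraries.

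Some heat shock genes, which code for chaperones, rose. Of 23 tested, 6 were called higher (26.1%) and 1 lower, with a median log2 fold change of 0.15. Hsp70Bbb was at 4.49, 3.59 and 4.49 CPM in control and 14.2, 16.8 and 15.5 CPM in knockdown libraries (log2 fold change 1.88, SE 0.205, adjusted p = 1.31e-06) and Hsp70Ba at 2.24, 1.997 and 2.62 CPM in control and 9.08, 11.00 and 10.6 CPM in knockdown libraries. Hsp70Ba had a log2 fold change of 2.14 (SE 0.285, adjusted p = 1.68e-05). The Hsp70 copies are nearly identical, so reads may be split between them. The small chaperone gene Hsp67Bc rose (log2 fold change 0.69, adjusted p = 0.00297). Hsp26 had a log2 fold change of 0.49, adjusted p = 0.0105 (adjusted p 0.0592 to 0.0613 without control replicate 2 or knockdown replicate 2). Hsp23 had 0.34, adjusted p = 0.0234 (adjusted p 0.0569 to 0.0917 without control replicate 1, 2 or 3 or knockdown replicate 1 or 2). Hsp27 had 0.82, adjusted p = 0.0294 (adjusted p 0.0743 to 0.149 without control replicate 1 or 3 or knockdown replicate 1 or 2). Hsp83, the fly Hsp90, was the 1 lower, at 514, 509 and 566 CPM in control and 422, 424 and 437 CPM in knockdown libraries (log2 fold change -0.31, adjusted p = 0.0283; adjusted p 0.0647 to 0.138 without control replicate 3 or knockdown replicate 1, 2 or 3). The summed level of the list did not separate the groups, at 4817, 4695 and 5170.5 CPM in control and 5105, 4740.1 and 4629 CPM in knockdown libraries. Of 12 genes of the unfolded protein response, Cnx99A, calnexin, rose (log2 fold change 0.41, adjusted p = 0.00191) and the transcription factor gene Xbp1 fell (log2 fold change -0.31, adjusted p = 0.00702; adjusted p 0.0503 without knockdown replicate 3). The shares called in this list, 8.33% higher and 8.33% lower, lay near those over all genes, 7.14% and 7.56%. Still, 8 of the 12 had a negative log2 fold change (median -0.20). At an unadjusted p below 0.05, 7 were lower and 1 higher, and 2433 of all 9056 genes passed in either direction. DESeq2 called 1 higher and 2 lower. The summed level was 3187, 3108 and 3075 CPM in control and 2691, 2842 and 2845 CPM in knockdown libraries, without overlap.

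Some female-biased genes were higher. Of 7 tested, 2 were called higher. fit, a satiety peptide of the female head fat body, was at 50.4, 34.4 and 49.98 CPM in control and 124, 177 and 134 CPM in knockdown libraries (log2 fold change 1.69, adjusted p = 4.46e-05). Yp3, a yolk protein, was at 16249, 13532 and 14679.6 CPM in control and 28750.0, 20765 and 24886 CPM in knockdown libraries. Yp3 had a log2 fold change of 0.74 (SE 0.173, adjusted p = 0.00511). Yp1 and Yp2 missed the threshold (log2 fold change 0.13, adjusted p = 0.723; 0.51, adjusted p = 0.108). The summed level of the 7 was 61067, 52889 and 55003 CPM in control and 87579.8, 57929 and 74491 CPM in knockdown libraries. The male dosage compensation RNAs roX1 and roX2 were lowest in knockdown replicate 1, at 184, 235 and 237 CPM in control and 113, 257 and 205 CPM in knockdown libraries for roX1 and 56.7, 60.9 and 76.2 CPM in control and 28.8, 83.02 and 64.96 CPM in knockdown libraries for roX2. That library also had the highest summed level of the female-biased genes, and the part of sex composition in these results was not tested. Without it and control replicate 1, 1 of the 7 female-biased genes was called. Of 8 dosage compensation genes, mle (log2 fold change -0.51, adjusted p = 0.00578) and msl-2 (log2 fold change -0.62, adjusted p = 0.0311; adjusted p 0.0989 to 0.138 without control replicate 2 or 3 or knockdown replicate 1 or 3) were called lower. The share lower was 25%, against 7.56% over all genes. Of 11 genes of RNA interference, 2 argonaute genes were called lower. AGO2 was at 67.9, 61.9 and 55.2 CPM in control and 42.4, 49.8 and 45.9 CPM in knockdown libraries (log2 fold change -0.42, adjusted p = 0.00538), and AGO1 had a log2 fold change of -0.32, adjusted p = 0.0207 (adjusted p 0.0795 to 0.116 without control replicate 3 or knockdown replicate 1 or 2).

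**Figure D4:**
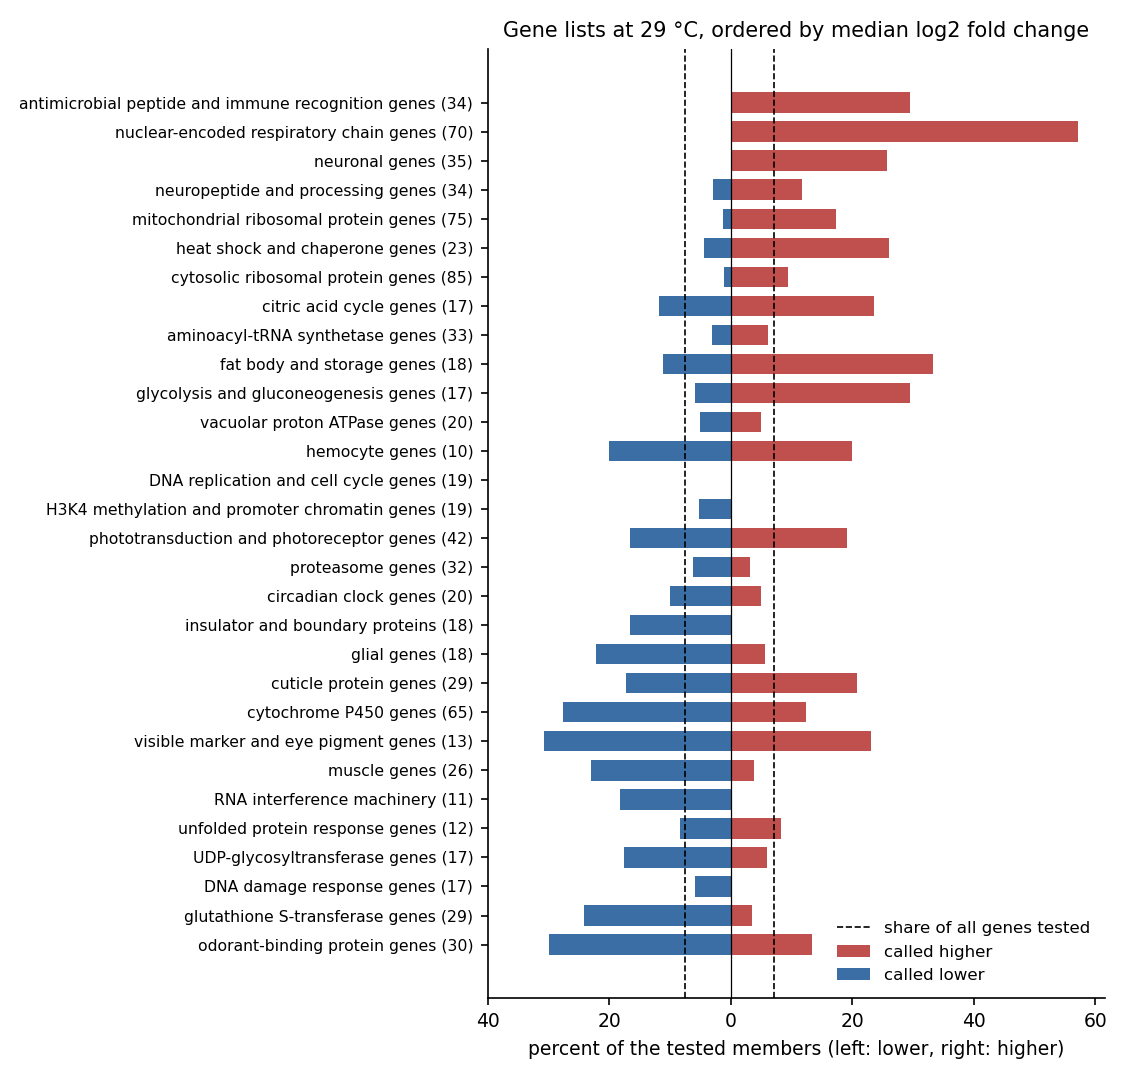
Share of tested members called higher (right, red) or lower (left, blue) at 29 °C for each gene list with at least 10 tested members, ordered by median log2 fold change; the number tested is in brackets. Dashed lines mark the shares over all genes tested, 7.14% higher and 7.56% lower, and the respiratory chain list reaches 57.1% higher.

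The same genotypes were also kept at 18 °C. There 1279 genes (14.1%) were called, and 579 genes were called at both temperatures, 43.5% of the calls at 29 °C and 45.3% of those at 18 °C. Of the 579, 563 had the same direction. Of all calls at 29 °C, 85.8% had the same sign at 18 °C, against 64.7% of all genes tested. BEAF-32 fell at 18 °C by a log2 fold change of -3.70 and the difference between the temperatures missed the threshold (-0.29, adjusted p = 0.823). Rh6 and Rh5 had log2 fold changes of -2.09 and 1.04 at 18 °C, with no call for the difference (adjusted p = 0.497 and 0.314).

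The difference itself, the log2 fold change at 29 °C minus that at 18 °C, was called in 209 genes (2.31%), 126 higher and 83 lower. The count lower was 42 without control replicate 1 at 29 °C, 46 without control replicate 3 and 49, 52 and 48 without knockdown replicates 1, 2 and 3. It was 50 and 54 without control replicates 1 and 3 at 18 °C. The count higher was 76 without control replicate 3 at 29 °C. At 29 °C 753 genes were called that were not called at 18 °C, and 58 of them passed this test, so missing a call at 18 °C alone does not show a difference. y was among the 58: at 18 °C it had a mean of 2.36 CPM in control and 4.18 CPM in knockdown libraries (log2 fold change 0.74, adjusted p = 0.165; difference 4.11, adjusted p = 0.000105). CG43448 fell at 29 °C, at 17.3, 19.97 and 19.7 CPM in control and 3.59, 4.37 and 5.16 CPM in knockdown libraries (log2 fold change -2.13, SE 0.175, adjusted p = 2.03e-08), and was not called at 18 °C (log2 fold change -0.17, adjusted p = 0.535; difference -1.96, adjusted p = 7.82e-05).

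Of the 209, 13 were called higher at 29 °C and lower at 18 °C, and 3 the other way. CG8665 was at 9.59, 6.59 and 10.1 CPM in control and 30.1, 28.6 and 33.8 CPM in knockdown libraries (log2 fold change 1.80, SE 0.153, adjusted p = 3.34e-08) and fell at 18 °C (log2 fold change -0.50; difference 2.29, adjusted p = 1.28e-06). smp-30 rose at 29 °C and fell at 18 °C (log2 fold change -1.13; difference 1.61, adjusted p = 1.45e-06). CG3609 had log2 fold changes of 0.43 at 29 °C and -0.90 at 18 °C (adjusted p = 5.83e-05 for the difference), and its call at 29 °C was lost without single libraries (adjusted p 0.0524 to 0.066 without control replicate 2 or 3 or knockdown replicate 2 or 3). Pgd, called higher at 29 °C, had a log2 fold change of -0.12 at 18 °C (difference 1.12, adjusted p = 3.28e-05). CG14186 fell at 29 °C (log2 fold change -0.86, adjusted p = 4.68e-06; difference -1.02, adjusted p = 0.000513). These 7 differences kept their calls when any 1 of the 12 libraries was left out.

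**Figure D5:**
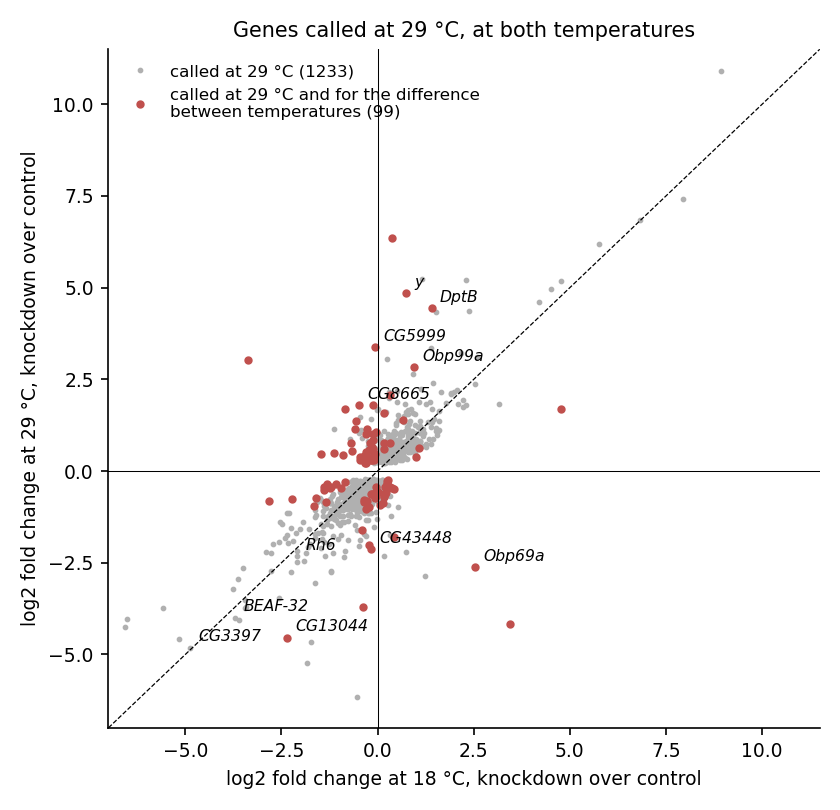
Log2 fold change of knockdown over control at 29 °C against that at 18 °C for the 1332 genes called at 29 °C. Red points are the 99 that were also called for the difference between temperatures, and the dashed line marks equal values.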

How the data were processed

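Heads of the 6 libraries at 29 °C and, in the same fit, the 6 of both genotypes at 18 °C were analysed from a table of counts per gene. The authors deposited whole-number counts, per the file headers 1 column per library, and the submitters' processing notes name STAR, TopHat2 and the build dm3. Versions, counting tool, annotation and strand setting are not given in the sources used here, so overlapping genes cannot be separated. No read was counted for 3044 of the 16719 listed genes, and 12673 symbols matched the RefSeq gene table directly, 3936 by synonym and 110 not at all. Totals ran from 4157130 to 6393926 counts at 29 °C, and intervals and floors cover counting error only.

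edgeR 4.0.16 (R 4.3.3) fitted 4 groups with TMM scaling after filterByExpr (minimum count 10, minimum total 15), which left 9056 genes. The quasi-likelihood F test gave p-values, adjusted by Benjamini-Hochberg over all genes tested, with a threshold of 0.05, and the SE is the log2 fold change over the root of F. Scripts were tested on simulated data. DESeq2 1.42.0 and other settings were alternatives. The libraries and 39 gene lists were chosen with earlier results of these data known. Named genes were BEAF-32 and the 12 largest changes in each direction among called genes whose groups did not overlap and whose mean was 5 CPM or more. To these were added the 6 smallest adjusted p in each direction, up to 4 called members of each list and the 5 smallest adjusted p of the temperature difference in each direction. Other called members of lists, the rhodopsin and Hippo genes, roX1, roX2 and Obp83a were named after their values were seen. Same-numbered libraries did not deviate together (r = 0.027, 0.019 and 0.014), so no replicate block was used.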

Additional observations from a re-analysis of the deposited data

Results flagged for a closer look

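The log2 fold change at 29 °C minus that at 18 °C passed edgeR's quasi-likelihood test (Benjamini-Hochberg adjusted p below 0.05) in 209 genes, and the named genes among them are given here with that difference. Metabolic genes with a higher log2 fold change at 29 °C than at 18 °C were smp-30 (1.61), Pgd (1.12), ImpL3 (1.41), GlyP (0.74), Gapdh1 (0.58), Gpdh (0.57), Hex-C (0.52), CG34172 (0.97) and Zw (0.74). This is not always a rise in knockdown heads, since at 29 °C GlyP was called lower and Zw was not called. Others with a higher log2 fold change at 29 °C were y (4.11), Lsp2 (2.52), Def (1.91), DptB (3.04), Obp99a (1.87), CG5999 (3.44), CG8665 (2.29), CG3699 (1.79), CG3609 (1.33) and the photoreceptor gene Gbeta76C (0.46).

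Genes with a lower value at 29 °C were CG43448 (-1.96), CG34136 (-1.92), CG13044 (-2.20), CG14186 (-1.02), ash2 (-0.74), trpl (-0.48), GstZ2 (-0.81) and Cpr67B (-0.44). inaF-D and inaF-B, which share reads, had -0.81 each. The antennal genes Obp83a (-6.93), Obp69a (-5.15) and Orco (-4.50) were also lower. Without control replicate 1 at 29 °C the adjusted p was 0.608 for Obp83a and 0.155 for Orco. DptB, Gbeta76C, GstZ2, Cpr67B and Zw also lost the call without single libraries, with adjusted p of up to 0.0915, 0.111, 0.0867, 0.123 and 0.154. The other 25 named genes kept it without any 1 of the 12 libraries. No explanation was tested.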

How the results depend on the processing

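Against 1332 genes called at 29 °C, 1313 were called with RLE size factors, 1319 with upper-quartile factors, 1500 without the filter, 988 with DESeq2 and 1429 from the 6 libraries at 29 °C alone. With 1 library left out in turn, 873 to 1065 were called, 388 to 505 of them higher. Without both control replicate 1 and knockdown replicate 1 the count was 709 (330 higher, 379 lower), and at a threshold of 0.01 it was 703 (308 higher, 395 lower). At 18 °C the threshold of 0.01 left 773. The difference between temperatures was called in 423 genes without the filter, 117 without both first replicates, 91 at 0.01, and 122 to 250 with 1 library left out, where the libraries at 18 °C were left out by a choice made after seeing the data. With the replicate block 1225 genes were called, 1194 of them shared, and 12 of 182 called named genes lost the call. The lower part of that difference, 83 genes, was 42 to 84 with 1 library left out, 29 without both first replicates, 25 at 0.01 and 169 without the filter, and its higher part, 126 genes, was 76 to 169, 88, 66 and 254. Among the gene lists, DESeq2 called 6 mitochondrial ribosomal genes higher against 13, 4 neuronal genes higher against 9 and 3 muscle genes lower against 6. Without the filter 19 immune genes were higher against 10, and 16 odorant-binding protein genes lower against 9. Without both first replicates 19 respiratory genes were higher against 40. Glycolysis genes called higher were 3 against 5 with RLE or upper-quartile factors, without the filter and with the replicate block. A stricter threshold calls fewer genes by construction, and the cause of the other shifts was not tested.

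Of the 182, 74 lost the call under at least 1 of 14 alternatives, and none changed direction. Descriptions of a promoter motif and of head-to-head neighbours were not run, since no promoter sequence or strand was in the reference tables used here. Depth limits genes near 3 counts, 0.485 to 0.773 CPM.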

Other observations

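In 3 cell maintenance lists the shares called at 29 °C lay near or below those over all genes, 7.14% higher and 7.56% lower. Higher and lower, they were 3.1% and 6.25% for proteasome and 6.06% and 3.03% for aminoacyl-tRNA synthetase genes. For vacuolar proton ATPase genes they were 5% and 5%. Of 32 proteasome genes 1 was called higher and 2 lower, against 0 and 13 at 18 °C, and none passed the test of the difference between temperatures. Prosalpha1 (log2 fold change -0.64, adjusted p = 5.49e-05) and Rpn6 (log2 fold change -0.42, adjusted p = 0.00190) fell, and Prosalpha6 rose (log2 fold change 0.31, adjusted p = 0.0408; adjusted p 0.054 to 0.224 without control replicate 2 or 3 or knockdown replicate 1 or 3). Prosalpha1 and CG30382 had nearly equal counts in every library and cannot be told apart. Of 33 aminoacyl-tRNA synthetase genes 2 were called higher and 1 lower, the last being Aats-ala at 36.7, 29.4 and 34.4 CPM in control and 21.4, 16.7 and 17.5 CPM in knockdown libraries (log2 fold change -0.85, adjusted p = 3.76e-05). Aats-tyr and Aats-ala-m rose by log2 fold changes of 0.39 and 0.76. Of 20 vacuolar proton ATPase genes VhaM9.7-c fell (log2 fold change -0.48, adjusted p = 0.00374) and Vha68-1 rose (log2 fold change 0.25, adjusted p = 0.0359; adjusted p 0.0636 to 0.181 without control replicate 1 or knockdown replicate 1, 2 or 3).

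Cuticle protein genes moved in both directions, with 6 of 29 called higher and 5 lower. The count lower was 3 without control replicate 2 or 3 or knockdown replicate 1 or 3. Cpr47Ea was at 1.22, 0.599 and 1.12 CPM in control and 5.11, 5.18 and 5.67 CPM in knockdown libraries (log2 fold change 2.40, adjusted p = 6.34e-05), and Cpr51A at 6.93, 5.79 and 9.55 CPM in control and 20.2, 19.3 and 18.6 CPM in knockdown libraries (log2 fold change 1.38, adjusted p = 1.68e-05). The 5 lower, named after their values were seen, were Cpr72Ec (log2 fold change -0.62, adjusted p = 0.000184), Cpr49Ag (log2 fold change -0.64, adjusted p = 0.00121), Cpr76Bc (log2 fold change -0.91, adjusted p = 0.00488), Cpr62Ba (log2 fold change -1.72, adjusted p = 0.0256) and Cpr49Af (log2 fold change -1.39, adjusted p = 0.0462). None of 19 replication and cell cycle genes was called by edgeR or DESeq2, with 2 higher and 0 lower at an unadjusted p below 0.05. Of 17 DNA damage genes 1 was called, Xrp1, which was lower (log2 fold change -0.35, adjusted p = 0.0303; adjusted p 0.0759 to 0.121 without control replicate 1 or 3 or knockdown replicate 1, 2 or 3). The share lower was 5.88%, and at an unadjusted p below 0.05, 5 were lower and 0 higher (median log2 fold change -0.21). Their summed level was 215, 208 and 208 CPM in control and 184, 177 and 174 CPM in knockdown libraries, without overlap. Of 19 genes of H3K4 methylation and promoter chromatin ash2 was lower (log2 fold change -0.42, adjusted p = 0.00251). Of 6 histone genes 1 was called higher, His2B:CG33876 (log2 fold change 1.41, adjusted p = 0.0449; adjusted p 0.0769 to 0.194 without control replicate 1 or 2 or knockdown replicate 1, 2 or 3), whose copies are nearly identical. None of 3 tested genes of the 87A heat shock locus, 4 ovary genes or 1 testis gene was called by edgeR or DESeq2, and 1 ovary gene was lower at an unadjusted p below 0.05. Of 8 digestive genes tobi fell (log2 fold change -1.15, adjusted p = 0.000402), and Mal-B1 (log2 fold change 1.06, adjusted p = 0.0182; adjusted p 0.0539 to 0.0989 without control replicate 3 or knockdown replicate 2) and Mal-A1 (log2 fold change -0.77, adjusted p = 0.0306; adjusted p 0.0819 to 0.12 without control replicate 1 or 3 or knockdown replicate 1 or 3) were called.

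By chromosome arm, the share called was 12.2% on X, 16.6% on 2L, 15.5% on 2R, 14.2% on 3L, 14.5% on 3R and 13.95% on 4. On chromosome 4, 1 gene was called higher and 11 lower of 86. Long noncoding genes were called in 29 of 124 (23.4%) and antisense genes in 14 of 64 (21.9%), and without the strand setting reads of an antisense gene cannot be told from those of its partner.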
